A study of Mus musculus with 50 samples.

Results

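The Tdh locus on mouse chromosome 14 was taken as 2 of the 37310 genes in the count tables: Tdh, which encodes threonine dehydrogenase, and Gm17232, an annotated noncoding gene on the other strand whose exons overlap those of Tdh. The locus was chosen with the counts of Gm17232 in KO1 and wild type already known, so its levels in those groups are given as a description, with no test. RNA was sequenced from J1 cells, which are mouse embryonic stem (ES) cells of strain 129S4/SvJae, grown untreated on gelatin in medium with serum and the cytokine LIF. The groups were wild type cells and the NSD1-/- lines KO1 and KO2, with 2 libraries each. NSD1 is a histone methyltransferase, and the sources used here do not say how the lines were made. Nor do the labels say whether a group's libraries were separate cultures, so a p-value speaks only of how these libraries vary, and that variation may be technical.

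Threonine dehydrogenase is a mitochondrial enzyme that begins the breakdown of threonine, and its product is cleaved by the ligase encoded by Gcat into glycine and acetyl-CoA. Mouse ES cells are known for an unusually high level of this enzyme and for their need of threonine in the medium. The glycine feeds the folate one-carbon cycle, which supplies purine synthesis and, through methionine, S-adenosylmethionine, the methyl donor of histone methyltransferases.

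In mm9, Tdh spans chr14:64111184-64127929 on the minus strand, with 9 exons in its main transcript. Gm17232 spans chr14:64112536-64118709 on the plus strand with 4 exons. The main Tdh transcript shares 66 exon bases with Gm17232. They are 3.51% of the 1881 bases of that transcript and 14.6% of the 453 exon bases of Gm17232. All 66 are protein-coding in Tdh. They lie in 2 stretches, 38 bases where exon 3 of Tdh meets exon 2 of Gm17232 and 28 bases where exon 8 of Tdh meets exon 1 of Gm17232. The exons are shown because every fragment counted for Gm17232 touched one of its exons, and the capitals mark the bases that both genes use. Each is written 5′ to 3′ on the strand of its own gene, from the mm9 genome, so the capitals of a Tdh exon are the reverse complement of those of the Gm17232 exon that it meets.

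Tdh exon 3, chr14:64116435-64116477, minus strand: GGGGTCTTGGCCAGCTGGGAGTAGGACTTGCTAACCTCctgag
Gm17232 exon 2, chr14:64116440-64116557, plus strand: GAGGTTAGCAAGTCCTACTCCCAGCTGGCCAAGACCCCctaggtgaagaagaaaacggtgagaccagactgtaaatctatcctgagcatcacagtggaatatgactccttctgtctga
Tdh exon 8, its last 60 bases, chr14:64112579-64112638, minus strand: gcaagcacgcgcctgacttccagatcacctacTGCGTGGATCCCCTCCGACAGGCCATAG
Gm17232 exon 1, chr14:64112536-64112606, plus strand: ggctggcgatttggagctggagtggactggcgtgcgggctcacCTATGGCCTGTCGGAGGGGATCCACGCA

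The remaining exon bases of Gm17232 lie outside the exons of the main Tdh transcript. The counts do not tell which bases of an exon a fragment covered. All 3 introns of Gm17232 and all 8 of the main Tdh transcript begin with GT and end with AG on the strand of their own gene.

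**Figure D1:**
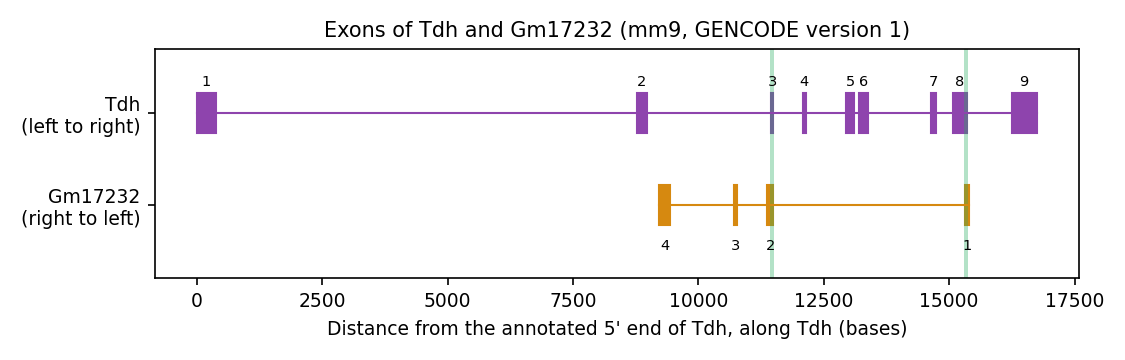
Exons of the main Tdh transcript (top) and of Gm17232 (bottom) against the distance in bases from the annotated 5′ end of Tdh. Boxes are numbered exons, lines are introns, and the green bars mark the 2 shared stretches, 38 bases at exon 3 and 28 bases at exon 8 of Tdh.

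The tables count a fragment for a gene only where its first read lies on that gene's strand, and the counts were read as coming from the strand opposite to the counted gene. Among genes where a noncoding gene lies opposite a protein-coding one, the 1181 noncoding genes held 234986 to 273905 counts per library and the 1228 coding genes held 19809 to 22108. The counts of Gm17232 are therefore described as fragments from the strand of Tdh, and those of Tdh as fragments from the strand of Gm17232. On this reading, counts under a gene's own symbol do not measure that gene's own transcript, and this holds for every gene named below. The counts alone do not separate fragments of spliced Tdh RNA from other RNA of the same strand. Total counts were 1150089 to 1285487 per library. The targeted gene, Nsd1, had 21 and 25 counts in wild type, against 55 and 38 in KO1 and 27 and 21 in KO2. By the strand reading these counts do not measure Nsd1 transcripts, so they do not check the knockout. Counts under Nsd1 rose in KO1, by 0.94 ± 0.27 on the log2 scale against wild type (adjusted p = 0.0230, edgeR's quasi-likelihood test, Benjamini-Hochberg adjustment), and the log2 difference in KO2 was 0.05 ± 0.31 (adjusted p = 0.945).

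Gm17232 was among the genes with the most counts in these cells. It ranked 20 of the 5034 tested genes by its mean of 3516 CPM (counts divided by effective library size and rescaled), where the median gene had 20.5 CPM. Wild type libraries held 4428 and 4750 counts, KO1 libraries 2206 and 2045, and KO2 libraries 5421 and 5888. Both KO1 libraries lay below both wild type libraries, and both KO2 libraries lay above them.

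Mean levels of Gm17232 were 3956 ± 116 CPM for wild type, 1749 ± 48.8 for KO1 and 4843 ± 16.3 for KO2 (SD, n = 2 each). KO1 thus had 0.442 of the wild type level and KO2 had 1.22 times that level. Libraries of a group differed by 0.476% to 4.14% of their mean, and the counting error of a single library was 1.30% to 2.21%. In the fit the log2 difference was -1.18 ± 0.05 (SE) for KO1 against wild type and -1.47 ± 0.05 for KO1 against KO2, both without a test because the locus was chosen on KO1.

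For KO2 against wild type the log2 difference of Gm17232 was 0.29 ± 0.05, with an adjusted p of 3.53e-05 (edgeR's quasi-likelihood test, Benjamini-Hochberg adjustment over 5034 genes). Those wild type libraries are the same ones that the choice of the locus used. In that comparison 8.98% of the tested genes passed an adjusted p of 0.05. The 3 groups thus stood in the order KO1, wild type, KO2, and each step in that order was wider than the spread between the libraries of a group. A lower level in bulk RNA cannot be told apart from fewer cells with the transcript.

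Tdh itself had far fewer counts, with 14 and 26 in wild type, against 10 and 9 for KO1 and 35 and 21 for KO2. The KO1 libraries were the lowest here too, while the KO2 libraries overlapped those of wild type. Mean levels of Tdh were 17.2 ± 6.97 CPM for wild type, 7.82 ± 0.382 for KO1 and 24.3 ± 9.81 for KO2 (SD, n = 2 each). Per kilobase of exon, Tdh had 6.57, 2.99 and 9.27 CPM in wild type, KO1 and KO2, against 8733, 3861 and 10691 for Gm17232. The lengths were the 2615 exon bases counted for Tdh, which exceed its main transcript, and the 453 of Gm17232.

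The log2 difference of Tdh was -1.13 ± 0.42 (SE) for KO1 against wild type and -1.61 ± 0.39 for KO1 against KO2, given without a test. It was 0.48 ± 0.33 for KO2 against wild type, with an adjusted p of 0.423 in the same edgeR test with Benjamini-Hochberg adjustment, which does not show that the levels are alike. Counts under both symbols were lowest in KO1, but few fragments stand behind the Tdh values. Whether the fragments counted for Tdh come from a separate RNA of that strand was not tested.

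Fragments counted for Tdh made up 0.315% to 0.641% of those counted for both genes across the 6 libraries. The exact 95% intervals of the 2 ends were 0.172% to 0.528% and 0.447% to 0.891%, and they cover counting error only. Over 331 such pairs with at least 1000 counts on the noncoding gene, the median share was 1.28%, with quartiles of 0.503% and 3.23%. The share at Tdh was thus near the lower quartile.

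**Figure D2:**
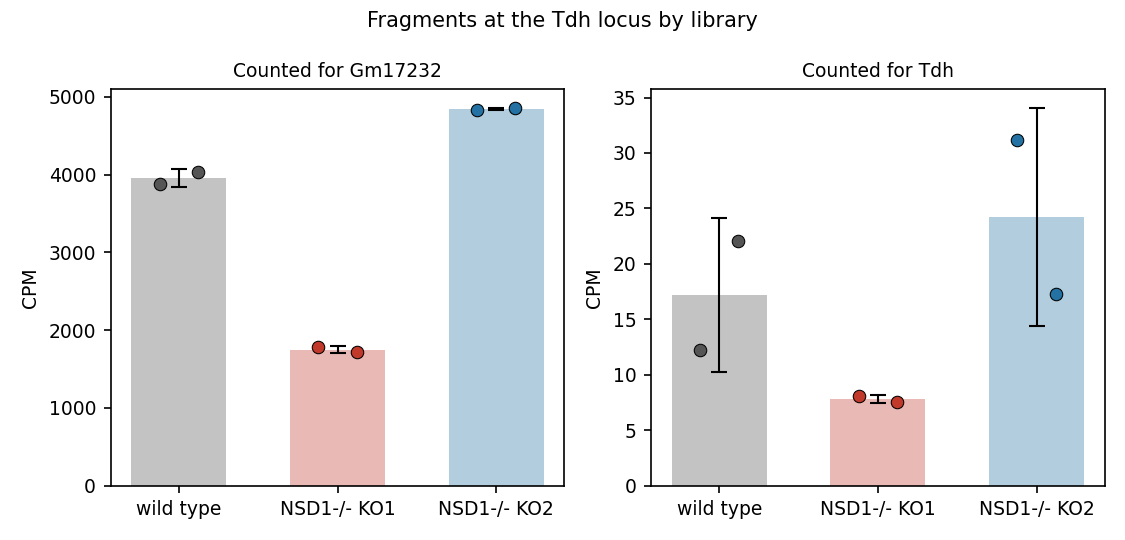
CPM of Gm17232 (left) and Tdh (right) in each group. Points are libraries, bars are group means and error bars are SDs (n = 2), and the y axes differ in scale. The Gm17232 points of the 3 groups are far apart, at means of 1749, 3956 and 4843 CPM, and the KO2 points of Tdh overlap those of wild type.

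Most neighbouring genes had few or no counts under their own symbols, which does not show whether their own transcripts were absent. Within 500 kb of the locus the annotation holds 19 other genes, of which 11 had no count in any library, among them Sox7, an endoderm transcription factor, and Blk, a kinase of B cells. A further 5 stayed under the filter on low counts, such as Gata4, a transcription factor of endoderm and heart, with at most 1 count per library. The remaining 3, Fdft1, Ctsb and Gm15918, were tested.

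Fdft1, which lies opposite Ctsb, the gene of the lysosomal protease cathepsin B, had 23 and 17 counts in wild type, against 6 and 12 in KO1 and 24 and 27 in KO2. Its KO1 libraries lay below all others. The log2 difference was -1.21 ± 0.40 for KO1 against wild type (adjusted p = 0.0523), 0.34 ± 0.32 for KO2 against wild type (adjusted p = 0.577) and -1.55 ± 0.38 for KO1 against KO2 (adjusted p = 0.00367, all edgeR with Benjamini-Hochberg adjustment). Ctsb, which lies opposite Fdft1, the gene of squalene synthase, had 31 and 41 counts in wild type, against 41 and 26 in KO1 and 24 and 46 in KO2. Its groups overlapped, with log2 differences of -0.17 ± 0.28 and -0.05 ± 0.28 for KO1 and KO2 against wild type. Gm15918, opposite Xkr6, had 24 and 13 counts in wild type, against 12 and 6 in KO1 and 10 and 10 in KO2, and its log2 differences were -1.10 ± 0.44 and -0.89 ± 0.43, neither past the threshold.

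Of the 3 tested neighbours, 0 passed an adjusted p of 0.05 for KO1 against wild type in edgeR, with 2 at an unadjusted p under 0.05 and 0 called by DESeq2, against 9.79% of all tested genes. Their median log2 difference was -1.10, beside 0.01 over all tested genes. For KO2 against wild type edgeR called 0, with 1 at an unadjusted p under 0.05 and 0 called by DESeq2, and the median was -0.05. Between KO1 and KO2 edgeR called 1, Fdft1, against 19.3% of all genes, and DESeq2 called 0. DESeq2 gave no adjusted p for 2 of the 3 neighbours. Without wild type replicate 2, edgeR called 2 neighbours for KO1 against wild type, and it called 1 without KO1 replicate 2 or either KO2 library. Without KO1 replicate 1 it called 0 between the lines.

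Low values in KO1 reached well beyond the neighbours. Starting from Tdh and moving along the chromosome, every tested gene had a log2 difference under -0.1 in KO1 across a stretch of 7 Mb, chr14:57226098-64226209, with the locus near its right end. The tested genes lie at its 2 ends: between Sap18 and 4931440J10Rik, 4.96 Mb with 59 annotated genes hold no tested gene. The stretch was found after its values were seen and gets no test. It holds 109 annotated genes, of which 14 were tested, Gm17232 and Tdh included. In 11 of the 12 others both KO1 libraries had fewer counts than both wild type libraries, the exception being Ctsb.

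Over those 12 genes the median log2 difference was -1.27 in KO1, from -1.75 to -0.17, and -0.04 in KO2, from -1.22 to 0.60. The stretch was drawn to hold only tested genes under -0.1 in KO1, so their sign in KO1 is no separate result. The other 140 tested genes of chromosome 14 had medians of -0.01 and -0.06. The 107 genes of the stretch other than the members, counted together, had 774 and 780 CPM in wild type, against 353 and 375 for KO1 and 714 and 782 for KO2. Their summed level in KO1 was thus 0.468 of wild type, beside 0.442 for Gm17232, and in KO2 it was 0.962, beside 1.22 for Gm17232. Most of this sum came from the 12 tested genes. Those are in the stretch because each was under -0.1 in KO1, so a sum below wild type largely follows from that choice. The rule sets the direction and not the size of the drop, and the value of 0.468 gets no test. The 95 genes of the stretch that were not tested, and so did not set its bounds, had 55.1 and 52.7 CPM together in wild type, against 40.4 and 38.6 for KO1 and 55.3 and 53.6 for KO2. Their drop in KO1 was smaller than that of the whole sum. It rests on few counts, 63 and 62 in wild type, against 50 and 46 for KO1 and 62 and 65 for KO2.

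Other genes of the stretch had low values in KO1 and varied values in KO2. Gm16973, opposite Mphosph8, a gene whose protein binds methylated lysine 9 of histone H3, had 317 and 305 CPM in wild type, against 130 and 151 in KO1 and 304 and 308 in KO2. Its log2 differences were -1.15 in KO1 and -0.02 in KO2. For 4931440J10Rik the differences were -1.35 and -0.18, and for Gm16573, opposite the poly(ADP-ribose) polymerase gene Parp4, they were -1.56 and 0.13. Il17d, a gene of the interleukin 17 family, was low in both lines, with -1.33 in KO1 and -1.22 in KO2. Sap18, which encodes a subunit of a histone deacetylase complex, had -0.67 in KO1 and 0.60 in KO2.

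The stretch ends on each side before the first tested gene not under -0.1 in KO1. Sdr39u1 and Pbk, the tested genes just outside it, could thus not be low by that rule. Sdr39u1, at -7.61 Mb from Tdh, had a log2 difference of -0.02 in KO1. Gm17588, opposite Nynrin and at -7.64 Mb, had -0.16 in KO1, itself under -0.1, and 0.34 in KO2. To the right, Pbk, a kinase gene at 2.30 Mb, had 0.25 in KO1. The DNA content and chromatin of the stretch were not analysed here, and the cause of its levels was not tested.

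**Figure D3:**
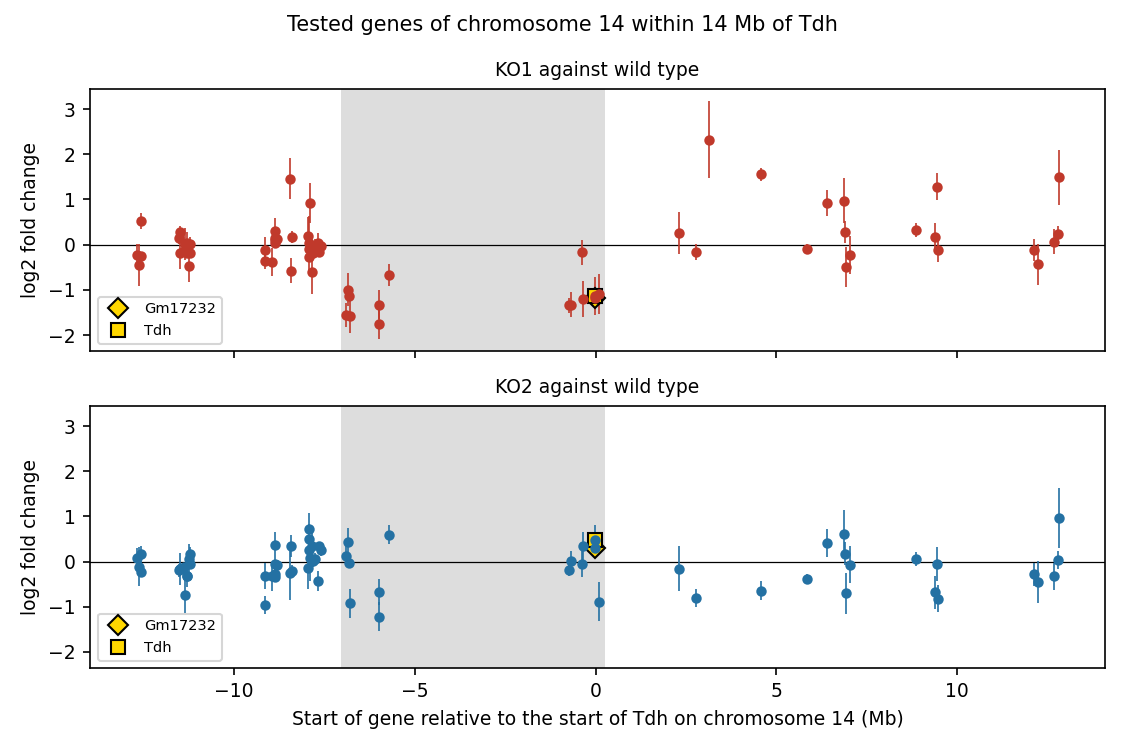
Log2 fold change against wild type of tested genes within 14 Mb of Tdh, for KO1 (top) and KO2 (bottom), by the distance of their starts in Mb; bars are SEs of the fit, and values with an SE of 1 or more are left out. The shaded stretch of 7 Mb holds the members and 12 other tested genes. All lie below 0 in KO1 by the rule that drew the stretch, and they lie on both sides of 0 in KO2.

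The genes with the pattern most like Gm17232 over the 6 libraries were sought by the Euclidean distance between log2(CPM + 1) values, each minus the gene's wild type mean, among the 2556 genes whose mean reached 20 CPM. The closest were Loxl3, opposite the mitochondrial protease gene Htra2 on chromosome 6, at a distance of 0.296, and Ccdc116 on chromosome 16 at 0.368. Gm17595, opposite the potassium channel gene Kcnj3 on chromosome 2, followed at 0.380, then Aup1, also opposite Htra2, at 0.490, and Gm16973 at 0.492. The next gene stood at 0.500, and the median distance was 1.74.

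Loxl3 had 613 and 592 CPM in wild type, against 306 and 284 in KO1 and 667 and 679 in KO2. Like Gm17232, it had less in both KO1 libraries and more in both KO2 libraries than in wild type. Loxl3 was chosen for this likeness, so the shared direction is no separate result. Its log2 difference for KO2 against wild type was 0.16 ± 0.07, not called. Loxl3 and Aup1 share their opposite gene and lie on a chromosome whose 259 tested genes had a median log2 difference of -0.42 in KO1, 64 of them called lower. Chromosome 14 as a whole had a median of -0.07 over 154 tested genes. The 5 genes thus came from 4 chromosomes, and 1 of them lies in the stretch around Tdh.

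**Figure D4:**
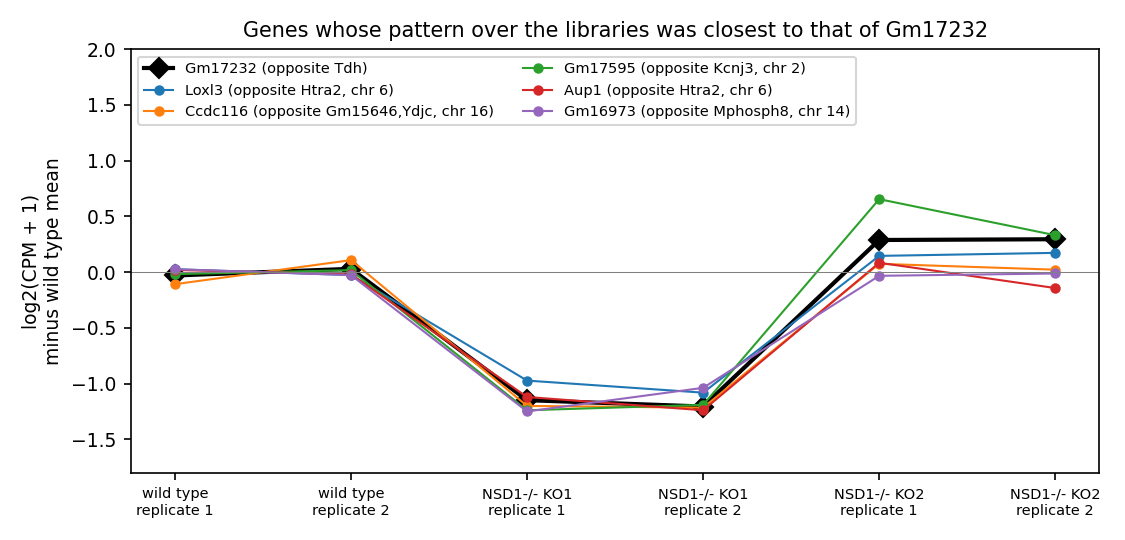
log2(CPM + 1) minus the wild type mean for Gm17232 (black) and the 5 genes closest to it, by library. All 6 genes lie near 0 in wild type and well below it in KO1, and in KO2 they spread over both sides of 0.

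Genes around threonine, glycine, serine, folate, methionine and purine metabolism were looked up in 6 lists of 64 genes, both as counted genes and as genes on the opposite strand. The lists were chosen with earlier results of these data known, so the calls below describe them only. As opposite genes, 13 counted genes were found and 9 were tested. For KO1 against wild type 1 was called higher and 0 lower, where 9.79% of all tested genes were called either way, and the median log2 difference was 0.09 beside 0.01 over all tested genes. For KO2 against wild type 3 were called higher and 0 lower, where 8.98% of all genes were called, with a median of 0.40 beside -0.01. Between KO1 and KO2, 5 were lower in KO1 and 0 higher, where 19.3% of all genes were called, with a median of -0.26 beside 0.02. As counted genes, 21 were tested, with 1 called lower in KO1, 1 called higher in KO2, and 2 higher and 1 lower in KO1 than in KO2. The counts of 1, 1 and 3 of 21 lie below the shares of all genes called, and 1 of the 9 opposite genes in KO1 is near its share. The 3 of 9 in KO2 and 5 of 9 between the lines lie above theirs. Of these, Smcr8 and Tsr1 lie on chromosome 11, with a median of 0.40 in KO2 and -0.31 between the lines. Gm15756 lies on chromosome 6, with a median of -0.41 between the lines, and Gm15622 and Gm15964 lie on other chromosomes.

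The enzymes next to threonine dehydrogenase could hardly be followed. No gene opposite a member of the glycine cleavage and threonine breakdown list passed the filter. Gcat, the partner of Tdh, had 0 to 6 counts per library under its own symbol. Tha1, a threonine aldolase, was the 1 tested gene of that list, with 33 and 53 counts in wild type, against 35 and 30 in KO1 and 34 and 36 in KO2. Its log2 difference was -0.47 ± 0.25 in KO1 (adjusted p = 0.285) and -0.30 ± 0.25 in KO2 (adjusted p = 0.513), in edgeR with Benjamini-Hochberg adjustment.

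In the folate list, Smcr8, opposite Shmt1, which encodes a serine hydroxymethyltransferase that moves a carbon from serine to folate, had 144 and 124 counts in wild type, against 115 and 114 in KO1 and 203 and 223 in KO2. It rose in KO2, by 0.66 ± 0.12 (adjusted p = 0.000524), and in KO1 the log2 difference was -0.29 ± 0.14 (adjusted p = 0.210, edgeR with Benjamini-Hochberg adjustment). Gm15756, opposite the folate dehydrogenase gene Aldh1l1, had differences of -0.12 in KO1 and 0.45 in KO2 against wild type, neither called. Slc19a1, a folate carrier gene, had 12 and 8 counts in wild type, against 12 and 11 in KO1 and 3 and 2 in KO2.

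In the serine list, Srr and its partner Tsr1 lie on opposite strands. Srr encodes serine racemase and Tsr1 a ribosome assembly factor, and counts for one are read as fragments from the strand of the other. Tsr1 had 27 and 17 counts in wild type, against 25 and 24 in KO1 and 38 and 43 in KO2, and it rose in KO2 by 0.87 ± 0.28 (adjusted p = 0.0473). Srr had 2854 and 2844 counts in wild type, against 2455 and 2318 in KO1 and 3371 and 3669 in KO2. It fell by 0.32 ± 0.05 in KO1 (adjusted p = 2.32e-05) and rose by 0.29 ± 0.05 in KO2 (adjusted p = 5.97e-05), all in edgeR with Benjamini-Hochberg adjustment. Smcr8, Srr and Tsr1 lie on chromosome 11, whose 560 tested genes had a median log2 difference of 0.40 in KO2, with 123 called higher.

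In the methionine list, Gm15622, opposite Bhmt, which encodes an enzyme that remakes methionine from homocysteine, rose in both lines. It had 29 and 20 counts in wild type, against 67 and 59 for KO1 and 247 and 257 for KO2. The log2 differences were 1.29 ± 0.23 in KO1 (adjusted p = 0.000275) and 3.35 ± 0.18 in KO2 (adjusted p = 4.40e-14, edgeR with Benjamini-Hochberg adjustment). In the purine list, Gm15964, opposite Gart, which encodes an enzyme of purine synthesis, had 2943 and 3009 counts in wild type, against 2932 and 2995 in KO1 and 3143 and 3337 in KO2, and it was not called in either line against wild type. In the list of threonine supply, Slc38a2, a transporter of neutral amino acids, had 19 and 9 counts in wild type, against 27 and 27 in KO1 and 6 and 17 in KO2.

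**Figure D5:**
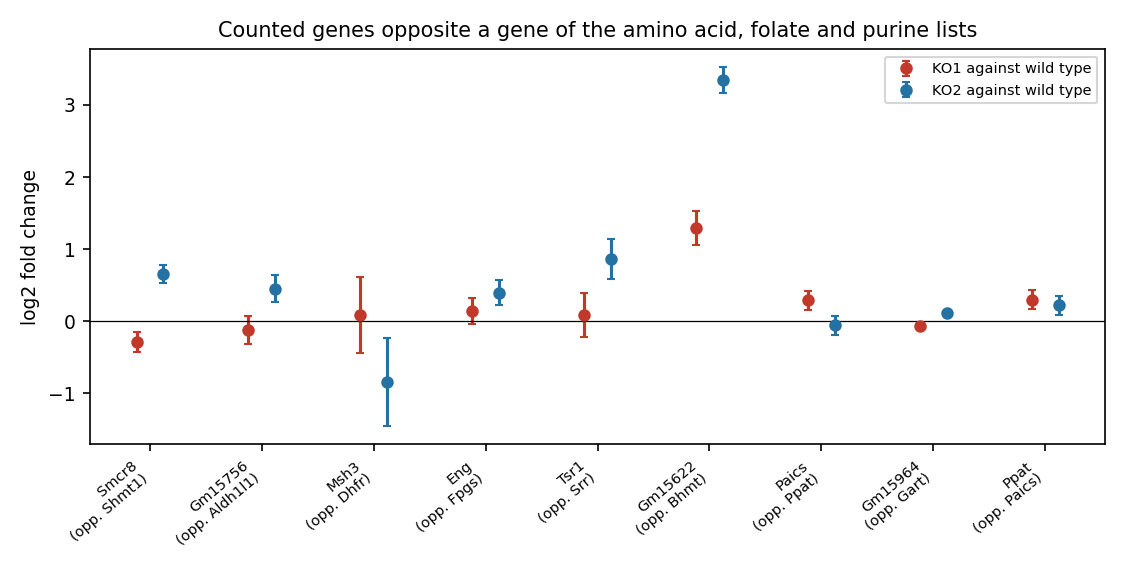
Log2 fold change against wild type of the 9 tested genes opposite a gene of the 6 lists, for KO1 (red) and KO2 (blue); bars are SEs. Gm15622, opposite Bhmt, stands apart at 1.29 in KO1 and 3.35 in KO2.

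Few cell type markers could be read, because only counts of a gene opposite a marker are taken to come from the marker's strand. Of 12 ES cell markers, 3 have a counted gene opposite. These 3 genes summed to 883 to 961 CPM for wild type libraries, 806 to 812 for KO1 and 710 to 782 for KO2. Among them Gm13061, opposite the pluripotency factor gene Lin28a, fell in both lines, with log2 differences of -0.48 ± 0.09 in KO1 (adjusted p = 0.000323) and -0.38 ± 0.09 in KO2 (adjusted p = 0.00518, edgeR with Benjamini-Hochberg adjustment). Gm14261, opposite the pluripotency factor gene Sall4, had a log2 difference of 0.04 ± 0.08 in KO1 (adjusted p = 0.838) and fell by 0.25 ± 0.08 in KO2 (adjusted p = 0.0415, edgeR with Benjamini-Hochberg adjustment).

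Genes opposite fibroblast markers moved more. Of the 7 tested, 3 were called lower in KO1 and 5 in KO2, where 9.79% and 8.98% of all tested genes were called. Among those called in KO2, 2810430I11Rik and Gm13372 lie opposite the same marker, Col5a1, so the genes are not all separate markers. The marker lists were chosen with earlier results of these data known, and the markers were named after their values were seen. These calls and the p-values of the markers are therefore a description and no separate support. Gm17329, opposite the collagen gene Col1a1, had 78 and 94 counts in wild type, against 4 and 3 in KO1 and 4 and 1 in KO2. It fell in both lines, with log2 differences of -4.64 ± 0.36 in KO1 (adjusted p = 1.35e-10) and -5.05 ± 0.38 in KO2 (adjusted p = 6.02e-11, edgeR with Benjamini-Hochberg adjustment). Syn3, opposite the metalloproteinase inhibitor gene Timp3, fell too, with -2.35 ± 0.25 in KO1 (adjusted p = 5.12e-08) and -2.84 ± 0.27 in KO2 (adjusted p = 5.34e-09, edgeR with Benjamini-Hochberg adjustment). Both were low in both lines, while Gm17232 was low in KO1 and high in KO2. The 7 genes summed to 1540 to 1609 CPM for wild type libraries, 1412 to 1459 for KO1 and 1317 to 1353 for KO2. Most of each sum was Apol7d, opposite Fn1, with means of 1181, 1240 and 1189 CPM in the same order.

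The streak and mesoderm list has no counted gene opposite its members. Counts under its own symbols summed to 56.0 to 57.8 CPM for wild type libraries, 34.4 to 46.1 for KO1 and 53.6 to 60.6 for KO2, lowest in KO1 as for Gm17232, and by the strand reading they do not measure these markers. Genes opposite endoderm and neuroectoderm markers were under the filter. The part of cell makeup in the levels of Gm17232 was not tested.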

How the data were processed

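RNA sequencing of 6 libraries was used, and the series' 44 other samples were not analysed here. The authors deposited raw counts of fragments per gene, made with featureCounts 2.0.1 with strand setting 1 on GENCODE mouse version 1 and mm9, per the file headers. The tools named, per the submitters' processing notes, include the aligner STAR 2.5.4b and the trimmer Trim Galore 0.6.4, without their settings. All 37310 gene spans and strands equalled the annotation, and sequences were read from the mm9 genome.

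edgeR 4.0.16 in R 4.3.3 was used for all tests, with filterByExpr (minimum count 10), TMM factors and a robust quasi-likelihood fit with 3 group means and 3 residual degrees of freedom. This left 5034 genes. A gene was called at a Benjamini-Hochberg adjusted p under 0.05. Errors of log2 differences are standard errors of the fit. DESeq2 1.42.0 was an alternative, and the fit was tested on simulated counts. A gene was taken as opposite a counted gene where it shares at least 50 exon bases with it on the other strand (bedtools 2.31.1). A counted gene can thus have more than 1 opposite gene.

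The members and all gene lists were chosen with earlier results of these data known. Named genes were the members, every tested neighbour, the called entries of each list, or 2 by level where none was called, the 5 genes of closest pattern, and Nsd1. Neighbours in the stretch of chromosome 14 and the markers were named after their values were seen. No p is given for either member where KO1 enters, although a fit was planned for Tdh.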

Additional observations from a re-analysis of the deposited data

Results flagged for a closer look

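These results are given because the 2 NSD1-/- lines differed from each other. For Gm17232 both KO1 libraries lay below wild type and both KO2 libraries above it, a difference of -1.47 on the log2 scale between KO1 and KO2, which was not tested because the locus was chosen on KO1. The tested neighbour Fdft1 differed by -1.55 ± 0.38.

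Between the lines 971 of 5034 tested genes were called, and the other differences given here are those of named or listed genes with an adjusted p under 0.05 (edgeR, Benjamini-Hochberg), as log2 differences of KO1 minus KO2. Smcr8, opposite Shmt1, differed by -0.95 ± 0.13, Srr by -0.62 ± 0.05 and Tsr1 by -0.78 ± 0.27, and these lie on chromosome 11, where the median over 560 tested genes was -0.31. Gm15756, opposite Aldh1l1 on chromosome 6, differed by -0.57 ± 0.18, where the median over 259 tested genes was -0.41. Gm15622, opposite Bhmt, differed by -2.06 ± 0.15 and Gm15964, opposite Gart, by -0.19 ± 0.05. Slc19a1 differed by 2.09 ± 0.64 and Slc38a2 by 1.17 ± 0.39, both with higher counts in KO1 and with no library above 27 counts.

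Among the markers, Gm14261, opposite Sall4, differed by 0.29 ± 0.08 and Gm15270, opposite Ctgf, by 0.46 ± 0.13. Eomes differed by -1.39 ± 0.47 and Cdx1 by -1.08 ± 0.38, in counts under their own symbols. Tbx6, the remaining tested gene of their list, went the other way at 0.40 ± 0.29 and was not called. Counts under Nsd1 differed by 0.89 ± 0.27. Loxl3, Ccdc116, Gm17595, Aup1 and Gm16973 were chosen for a pattern like that of Gm17232, so their differences between the lines are no separate result.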

How the results depend on the processing

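Over 12 alternatives, no recomputed log2 difference of Gm17232 or Tdh changed sign and none tested for KO2 changed its side of the threshold. For Tdh in KO2 against wild type, DESeq2 is missing from these alternatives. Of 179 recomputed values, 160 were labelled as kept. For this, counts moved by at most 1.5 times, and untested differences by less than the SD between libraries, which was 0.493 for Tdh. The tested differences were not held to that SD, and Tdh in KO2 against wild type ranged from 0.03 to 0.98. Called genes numbered 207 with DESeq2 in place of 493 for KO1 against wild type, 170 in place of 452 for KO2 and 417 in place of 971 between the lines, and the cause was not tested. DESeq2 called 0 neighbours in place of 1, and 4 list entries in place of 8, between the lines. Without the filter on low counts, Gm17232 had -1.50 between the lines in place of -1.47. Leaving out each library in turn gave 280 to 591, 328 to 435 and 561 to 1065 called genes for KO1 and KO2 against wild type and between the lines. It gave 0 to 2, 0 to 0 and 0 to 1 called neighbours, and 2 to 3, 3 to 4 and 4 to 8 called list entries. Between the lines 4 or 5 list entries were called without any one of the KO libraries. Gm17232 ranged from -1.21 to -1.15, 0.27 to 0.34 and -1.49 to -1.45, with an adjusted p for KO2 of 6.05e-07 to 8.65e-04 over all alternatives. Tdh ranged from -1.49 to -0.64, 0.03 to 0.98 and -1.99 to -1.16, so its counts limit its values. Same-numbered libraries did not deviate together (correlations of 0.0109, -0.00685 and -0.0356), so the numbers were not taken to pair samples. With the replicate number as a block, 482, 416 and 935 genes were called and Gm17232 had -1.18, 0.29 and -1.47.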
